A study of Mus musculus with 12 samples.

Results

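Mafa, Ucn3, Slc2a2, G6pc2 and Abcc8 are genes by which a mature pancreatic β-cell is recognised and by which it senses glucose. The 5 genes were chosen by symbol, and each symbol matched 1 row of the 37991 genes in the count table. All 5 were among the 15961 genes with enough reads to be tested. Their levels were measured by bulk RNA-seq of whole pancreatic islets in 12 libraries, with 3 libraries in each of 4 groups, the islets of Wt and of Tg7 mice aged 2w or 12w. Tg7 mice carry a transgene that overexpresses miR-7a2 in β-cells, and the Wt mice were their littermates. All animals were C57BL/6 males, and the sources used here do not name the promoter of the transgene. Every library was made from islets pooled over at least 3 animals, so the spread between libraries is a spread between pools and not between single mice. The transgenic mice are described as normal in blood glucose at 2w and as diabetic at 12w, and the comparisons ask how far each gene differed before and after that point.

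In a mature β-cell glucose enters through GLUT2, the transporter encoded by Slc2a2, and is phosphorylated. The glucose-6-phosphatase subunit encoded by G6pc2 runs against that step and so raises the glucose concentration at which insulin is released. Glucose metabolism then closes the ATP-sensitive potassium channel (KATP channel), which is built from the sulphonylurea receptor SUR1, encoded by Abcc8, and a pore subunit, encoded by Kcnj11. Mafa encodes a transcription factor that binds the insulin gene and appears late in β-cell development, and Ucn3 encodes urocortin 3, a peptide released with insulin that acts on neighbouring δ-cells. Mafa and Ucn3 are widely used to tell mature from immature β-cells in mice.

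Total counts on genes ranged from 12803066 to 17515758 per library at 2w and from 11610697 to 17227642 at 12w. The insulin genes Ins1 and Ins2 took up between 10.1% and 15.4% of the reads of a library in Wt islets at 2w, and between 1.84% and 4.09% in Tg7 islets. At 12w they took up between 14.8% and 30.0% in Wt islets and between 8.08% and 8.24% in Tg7 islets. Counts were therefore scaled with edgeR's TMM factors, and levels are given in CPM, the count relative to the scaled library total. The β-cell, α-cell and δ-cell markers were present in all 12 libraries, and the 6 markers of acinar cells together reached at most 5.40 CPM. In the 12w Wt group, replicate 1 had the highest insulin share (30.0%) and replicate 4 the lowest (14.8%). Replicate 1 was also the lowest of its group for Mafa, and replicate 4 the highest for Slc2a2. In bulk RNA, fewer β-cells and less RNA of a gene in each β-cell cannot be told apart.

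All positions are on the mouse assembly NCBIM37, also known as mm9. Mafa lies at chr15:75577273-75578352 on the minus strand as a single annotated exon of 1080 bases that holds its coding sequence and no untranslated part. Ucn3 lies at chr13:3939934-3944595 on the minus strand and has 2 exons. Slc2a2 lies at chr3:28596825-28627278 on the plus strand with 11 exons, and the antisense gene 1700112D23Rik overlaps its span but shares 0 exonic bases with it. G6pc2 lies at chr2:69049130-69065898 on the plus strand with 5 exons. Abcc8 lies at chr7:53359893-53435403 on the minus strand with 39 exons, and Kcnj11, on the same strand, ends 4285 bases from it.

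The microRNA overexpressed in Tg7 mice is shown as the mature miR-7a sequence from RefSeq, with its seed, bases 2 to 8, in capitals, because a microRNA pairs with its targets through the seed.
miR-7a-5p: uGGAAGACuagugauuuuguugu
The matching site, GTCTTCC, was searched in the annotated 3′ UTR of the longest coding transcript of each gene. The 3′ UTRs of Ucn3 (468 bases), Slc2a2 (880 bases), G6pc2 (762 bases) and Abcc8 (101 bases) held 0 such sites, and no 3′ UTR is annotated for Mafa. In coding sequence, G6pc2 held 1 site and Abcc8 held 2. For comparison, 9.37% of 19474 mouse 3′ UTRs and 13.8% of 22355 coding sequences held the site.

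Sequence just upstream of the transcript start was searched on both strands for letters bound by β-cell transcription factors: TGCTGA, which is part of a Maf recognition element, CTAATG and TTAATG, bound by Pdx1, and CATCTG, an E-box bound by NeuroD1. The window of G6pc2 is shown because it held the most of these letters, and that of Ucn3 because it was the only other member with any. Each is the 150 bases before the annotated start of the longest coding transcript, 5′ to 3′ on the strand of the gene. The matching letters of either strand are in capitals. For G6pc2 this start lies inside the span given above, which covers all annotated transcripts and begins further upstream.
G6pc2, chr2:69057878-69058027, plus strand: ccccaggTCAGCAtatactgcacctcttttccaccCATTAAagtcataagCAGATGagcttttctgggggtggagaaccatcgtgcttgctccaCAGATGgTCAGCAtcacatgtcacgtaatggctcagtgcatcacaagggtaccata
Ucn3, chr13:3944596-3944745, minus strand: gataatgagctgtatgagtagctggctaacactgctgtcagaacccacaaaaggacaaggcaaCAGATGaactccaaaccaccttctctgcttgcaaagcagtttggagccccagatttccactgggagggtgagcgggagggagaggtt
In 250 bases upstream, G6pc2 held 2 copies of TGCTGA, 1 of TTAATG and 2 of CATCTG, and Ucn3 held 1 of CATCTG. Slc2a2 and Abcc8 held none of these motifs, and the annotated model of Mafa gives no transcript start. Among 22372 upstream windows of 250 bases, 14.7% held TGCTGA, 5.99% CTAATG, 7.35% TTAATG and 12.6% CATCTG, so matches are common and are given as a description only.

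At 2w all 5 genes were lower in Tg7 than in Wt islets, from 27.4-fold for Mafa to 2.34-fold for Abcc8. At 12w Mafa, Ucn3, Slc2a2 and G6pc2 were again lower, by 7.34-fold to 32.4-fold, and Abcc8 was 1.33-fold lower without passing the test. Genes are called where the p-value of edgeR's quasi-likelihood test, adjusted by Benjamini-Hochberg for all 15961 genes, is below 0.05. Of all tested genes 4.55% were called lower at 2w and 11.2% at 12w, and the median log2 fold change of all tested genes was 0.03 at 2w and -0.01 at 12w. With scaling by total counts alone, 16.0% of the genes called at 2w and 6.48% of those called at 12w were lower, against 42.8% and 47.3% with TMM factors, and the directions of all members but Abcc8 at 12w were kept. With upper-quartile factors that share was 35.3% at 12w. The median over the 5 genes was -3.56 at 2w and -3.40 at 12w. In each comparison of Tg7 with Wt of the same age, all 5 genes were lower in every Tg7 library than in every Wt library, which held for 18.1% of all tested genes at 2w and for 16.3% at 12w.

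**Figure D1:**
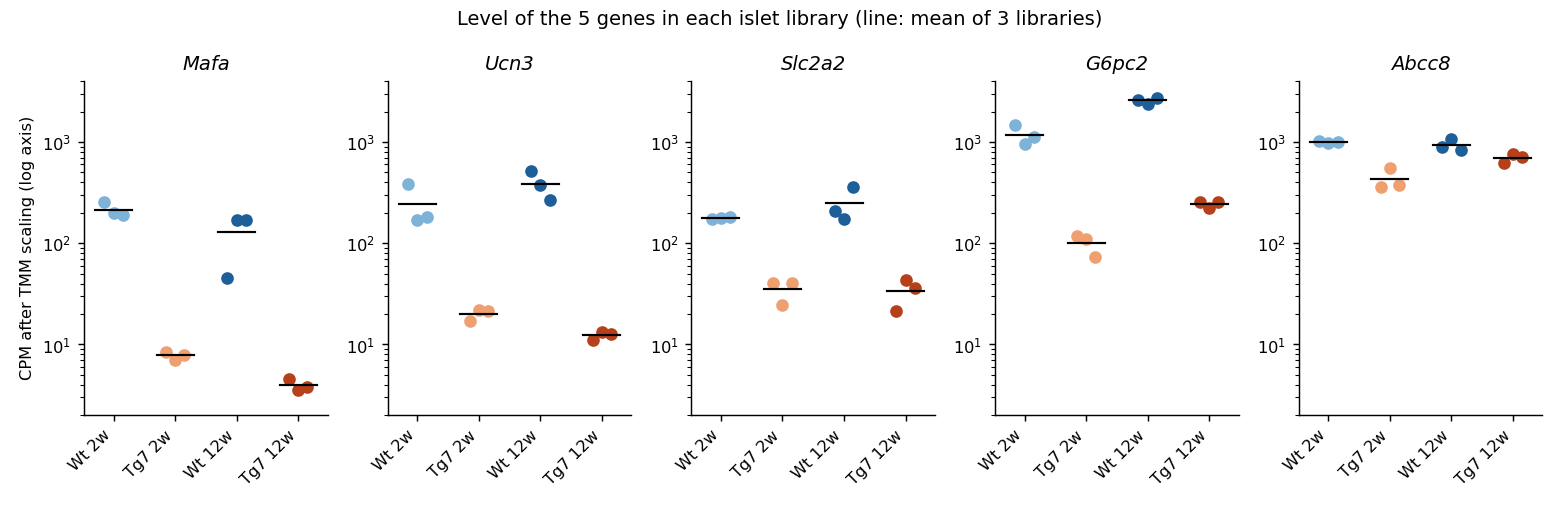
Level of each gene in every library, in CPM after TMM scaling on a log axis, for Wt and Tg7 islets at 2w and 12w; points are libraries and lines are means of 3. The Tg7 points lie below the Wt points of the same age in all 5 panels, and they come closest for Abcc8 at 12w.

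Mafa had the lowest fold change of the 5 genes at 2w, and at 12w it stood beside Ucn3. Its level in 2w Wt islets was 254, 199 and 189 CPM, against 8.48, 6.94 and 7.94 CPM in 2w Tg7 islets. At 12w it was 45.3, 170 and 170 CPM in Wt islets (replicates 1, 2 and 4) and 4.56, 3.54 and 3.83 CPM in Tg7 islets. Wt replicate 1 at 12w was thus well below the other Wt libraries and still above every Tg7 library. The log2 fold change was -4.78 (SE 0.40, adjusted p = 1.02e-05, edgeR) at 2w, which leaves 3.65% of the Wt level. At 12w it was -5.02 (SE 0.41, adjusted p = 2.41e-06, edgeR), or 3.09% of the Wt level. Counted from the lowest fold change, Mafa ranked 10 of 15961 genes at 2w and 12 at 12w. The 3 Tg7 libraries at 12w held 212 Mafa reads together, so the gene was still counted well above 0. Without Wt replicate 1 at 12w the log2 fold change was -5.44. The order of Mafa and Ucn3 at 12w turned without Wt replicate 2 (-4.77 for Mafa and -4.98 for Ucn3) and without Wt replicate 4 (-4.77 and -5.17). It also turned without Tg7 replicate 2 of 12w (-4.94 and -5.02) and with replicate number as a block (-4.64 and -5.10). Only the 12w Wt group has a replicate 4, so the block fit takes nothing from that library and is not independent of leaving it out.

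Ucn3 was also lower in every Tg7 library. Its level was 382, 170 and 180 CPM in 2w Wt islets and 17.0, 21.9 and 21.4 CPM in 2w Tg7 islets. The 12w values were 517, 380 and 267 CPM in Wt and 11.1, 13.4 and 12.7 CPM in Tg7 islets. The Wt libraries spread over a wide range at each age, while the Tg7 libraries lay close together. The log2 fold change was -3.60 (SE 0.31, adjusted p = 1.24e-05, edgeR) at 2w and -4.96 (SE 0.34, adjusted p = 3.60e-07, edgeR) at 12w. In linear terms Ucn3 was 12.1-fold lower at 2w and 31.2-fold lower at 12w.

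Slc2a2 was lower by a smaller factor. Its level was nearly even in 2w Wt islets, at 173, 176 and 181 CPM, and it was 40.6, 24.7 and 40.6 CPM in 2w Tg7 islets. The 12w values were 208, 173 and 362 CPM in Wt islets and 21.4, 43.3 and 36.5 CPM in Tg7 islets. The highest Wt value, 362 CPM, came from replicate 4, the 12w Wt library with the lowest insulin share. The log2 fold change was -2.32 (SE 0.30, adjusted p = 2.86e-04, edgeR) at 2w and -2.88 (SE 0.30, adjusted p = 1.87e-05, edgeR) at 12w. Slc2a2 was thus 5.002-fold lower at 2w and 7.34-fold lower at 12w, and without Wt replicate 4 the log2 fold change at 12w was -2.49.

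G6pc2 had the highest level of the 5 genes in Wt islets per kilobase of exon. Its level in CPM was 1476, 950 and 1120 CPM in 2w Wt islets and 118, 111 and 72.3 CPM in 2w Tg7 islets. At 12w it reached 2608, 2391 and 2710 CPM in Wt islets, where the libraries agreed closely, and 255, 221 and 256 CPM in Tg7 islets. The log2 fold change was -3.56 (SE 0.21, adjusted p = 1.28e-06, edgeR) at 2w and -3.40 (SE 0.21, adjusted p = 1.88e-07, edgeR) at 12w, which is 11.8-fold and 10.5-fold lower.

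Abcc8 differed least. Its level was 1020, 980 and 1006 CPM in 2w Wt islets and 361, 549 and 376 CPM in 2w Tg7 islets, 2.34-fold lower (log2 fold change -1.23, SE 0.17, adjusted p = 4.74e-04, edgeR). At 12w it was 887, 1071 and 833 CPM in Wt islets and 627, 761 and 709 CPM in Tg7 islets. The groups did not overlap at 12w either, but the log2 fold change of -0.41 (95% interval -0.77 to -0.06) did not pass the test (adjusted p = 0.0876, edgeR). It passed with DESeq2 (-0.42, adjusted p = 0.0477), with replicate number as a block (-0.46, adjusted p = 0.0455) and without Tg7 replicate 2 at 2w (-0.41, adjusted p = 0.0450), and when libraries were scaled by their total counts alone the estimate changed sign (0.04, adjusted p = 0.883). That scaling moved the median of all tested genes by 0.44, and relative to the median under it Abcc8 stood at -0.39.

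**Figure D2:**
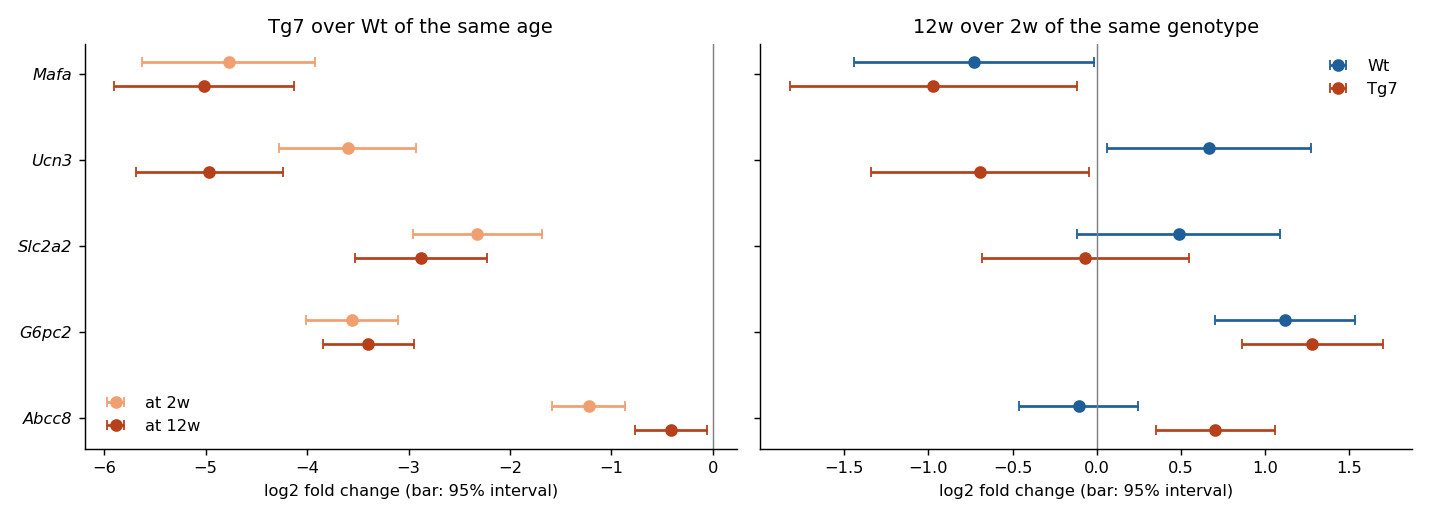
Log2 fold changes of the 5 genes with 95% intervals, for Tg7 over Wt at each age (left) and for 12w over 2w in each genotype (right). On the left every interval lies below 0, with Abcc8 at 12w the closest to it; on the right the intervals of G6pc2 in both genotypes, Abcc8 in Tg7 and Ucn3 in Wt islets lie above 0, and those of Mafa in both genotypes and Ucn3 in Tg7 islets below 0, although only those of G6pc2 and Abcc8 passed the test.

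Whether the difference between Tg7 and Wt islets itself changed with age was tested as the difference of the contrasts, and none of the 5 genes passed (edgeR), against 1.18% of all tested genes that did. The widest estimates were those of Ucn3, where the gap grew by 1.36 on the log2 scale (difference -1.36, 95% interval -2.25 to -0.48, adjusted p = 0.145), and of Abcc8, where it narrowed (difference 0.81, 95% interval 0.31 to 1.31, adjusted p = 0.123). Both passed with DESeq2, with adjusted p = 0.0261 for Ucn3 and 0.0253 for Abcc8. Without Wt replicate 1 at 2w, the library with the highest Ucn3 level of its group, the difference for Ucn3 was -1.84 (adjusted p = 0.0152), and without Wt replicate 4 at 12w it was -1.56 (adjusted p = 0.0420). Without Tg7 replicate 2 at 2w, the highest for Abcc8 in its group, the difference for Abcc8 was 1.04 (adjusted p = 0.0329). The difference was -0.24 (95% interval -1.35 to 0.86) for Mafa, -0.55 (-1.41 to 0.31) for Slc2a2 and 0.16 (-0.42 to 0.74) for G6pc2. These intervals do not show that the gap stayed equal.

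From 2w to 12w within a genotype, G6pc2 was the only member called in both. It rose in Wt islets (log2 fold change 1.12, SE 0.19, adjusted p = 0.00165, edgeR, 2.17-fold) and in Tg7 islets (1.28, SE 0.20, adjusted p = 7.90e-04, edgeR, 2.43-fold), against 7.90% and 7.02% of all tested genes called higher. In each genotype every 12w library lay above every 2w library for G6pc2, which held for 15.7% of all tested genes in Wt and 21.5% in Tg7 islets. Abcc8 rose in Tg7 islets (0.71, SE 0.17, adjusted p = 0.0121, edgeR) and not detectably in Wt islets (-0.11, 95% interval -0.46 to 0.25). The call for Abcc8 was lost without Tg7 replicate 1 at 2w (0.59, adjusted p = 0.0579), without Tg7 replicate 3 at 2w (0.63, adjusted p = 0.0566) and without Tg7 replicate 2 at 12w (0.64, adjusted p = 0.0605).

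Mafa, Ucn3 and Slc2a2 passed no test of age in either genotype in the reported fit, though Mafa and Ucn3 did under some alternatives. For Mafa the log2 fold change from 2w to 12w was -0.73 (95% interval -1.45 to -0.01, adjusted p = 0.154, edgeR) in Wt and -0.97 (-1.82 to -0.12, adjusted p = 0.129) in Tg7 islets, with every 12w library below every 2w library in both, as for 15.6% of all tested genes in Wt and 19.2% in Tg7 islets. Without Wt replicate 1 at 12w the Wt value was -0.32, and the Tg7 value was -0.98 and passed the test (adjusted p = 0.00132). Mafa in Tg7 islets also passed without a filter on low counts (-0.97, adjusted p = 0.0419). For Ucn3 it was 0.67 (0.06 to 1.27, adjusted p = 0.124) in Wt islets and -0.69 (-1.34 to -0.05, adjusted p = 0.153) in Tg7 islets. Without Wt replicate 1 at 2w the Wt value for Ucn3 was 1.14 and passed the test (adjusted p = 0.00660), as it did without Wt replicate 4 at 12w (0.87, adjusted p = 0.0325). For Slc2a2 it was 0.49 (-0.11 to 1.09) in Wt and -0.07 (-0.68 to 0.55) in Tg7 islets.

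Across the 4 groups, the order of means for Mafa was 2w Wt (214 ± 34.7 CPM, SD, n = 3), 12w Wt (128 ± 72.0), 2w Tg7 (7.79 ± 0.778) and 12w Tg7 (3.98 ± 0.528), and neighbours of the same genotype did not differ by the test. For Ucn3 it was 12w Wt (388 ± 125), 2w Wt (244 ± 119), 2w Tg7 (20.1 ± 2.73) and 12w Tg7 (12.4 ± 1.18), again with no called difference between ages. For Slc2a2 it was 12w Wt (248 ± 101), 2w Wt (177 ± 3.89), 2w Tg7 (35.3 ± 9.16) and 12w Tg7 (33.7 ± 11.3), where the Tg7 groups overlapped. For G6pc2 it was 12w Wt (2570 ± 163), 2w Wt (1182 ± 268), 12w Tg7 (244 ± 19.8) and 2w Tg7 (100.5 ± 24.7), and all neighbours differed by the test. For Abcc8 it was 2w Wt (1002 ± 19.99), 12w Wt (930 ± 125), 12w Tg7 (699 ± 67.6) and 2w Tg7 (429 ± 105), with no called difference between the Wt ages or between Wt and Tg7 at 12w.

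Islets of 12w Tg7 mice were also set beside islets of 2w Wt mice, a comparison in which age and genotype both differ. Mafa (log2 fold change -5.75), Ucn3 (-4.30), Slc2a2 (-2.39), G6pc2 (-2.28) and Abcc8 (-0.52) were all called lower in 12w Tg7 islets (largest adjusted p = 0.0343, edgeR, for Abcc8), against 11.6% of all tested genes called lower. The Abcc8 call was lost without any 1 of the 6 libraries compared, with an adjusted p of 0.132 without Tg7 replicate 1 at 12w. Mafa, Ucn3, Slc2a2 and G6pc2 in adult Tg7 islets were thus below their level in Wt islets at 2w.

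Levels can be compared between genes only per length, as CPM per kilobase of annotated exon. In 2w Wt islets G6pc2 stood at 599 ± 136 CPM per kilobase, Abcc8 at 202 ± 4.04, Mafa at 198 ± 32.2, Ucn3 at 165 ± 80.8 and Slc2a2 at 64.3 ± 1.41 (SD, n = 3). In 12w Wt islets G6pc2 stood at 1302 ± 82.6, and in 12w Tg7 islets at 124 ± 10.0, beside 141 ± 13.7 for Abcc8. In the same 12w Tg7 islets Slc2a2 stood at 12.3 ± 4.09, Ucn3 at 8.40 ± 0.796 and Mafa at 3.68 ± 0.489. For Mafa the length is that of its coding sequence, and its level per kilobase would be lower if reads in untranslated sequence had been counted.

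Since Abcc8 differed least, the counts of the other 4 genes were also expressed as a percentage of the Abcc8 count of the same library, which does not depend on the scaling. For Mafa this was between 18.8% and 24.9% in 2w Wt and between 1.26% and 2.35% in 2w Tg7 libraries, and at 12w between 5.11% and 20.4% in Wt and between 0.465% and 0.728% in Tg7 libraries. For Ucn3 it was between 17.3% and 37.4% against 3.99% to 5.69% at 2w, and between 32.1% and 58.3% against 1.76% to 1.80% at 12w. For both genes the gap to the nearest Wt library was severalfold. For Slc2a2 it was between 17.0% and 18.0% against 4.50% to 11.3% at 2w, and between 16.1% and 43.5% against 3.41% to 5.69% at 12w. For G6pc2 it was between 96.9% and 145% against 19.2% to 32.8% at 2w, and between 223% and 325% against 29.1% to 40.7% at 12w. Every Tg7 library lay below every Wt library for all 4 genes at both ages. Given that separation, an exact two-sided permutation test could give no p other than 0.1. That is the smallest value that 20 splits of 3 against 3 libraries allow, so the test adds nothing. Abcc8 was chosen as reference from these same data as the member that differed least. Lower mean ratios in Tg7 islets follow from that choice.

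**Figure D3:**
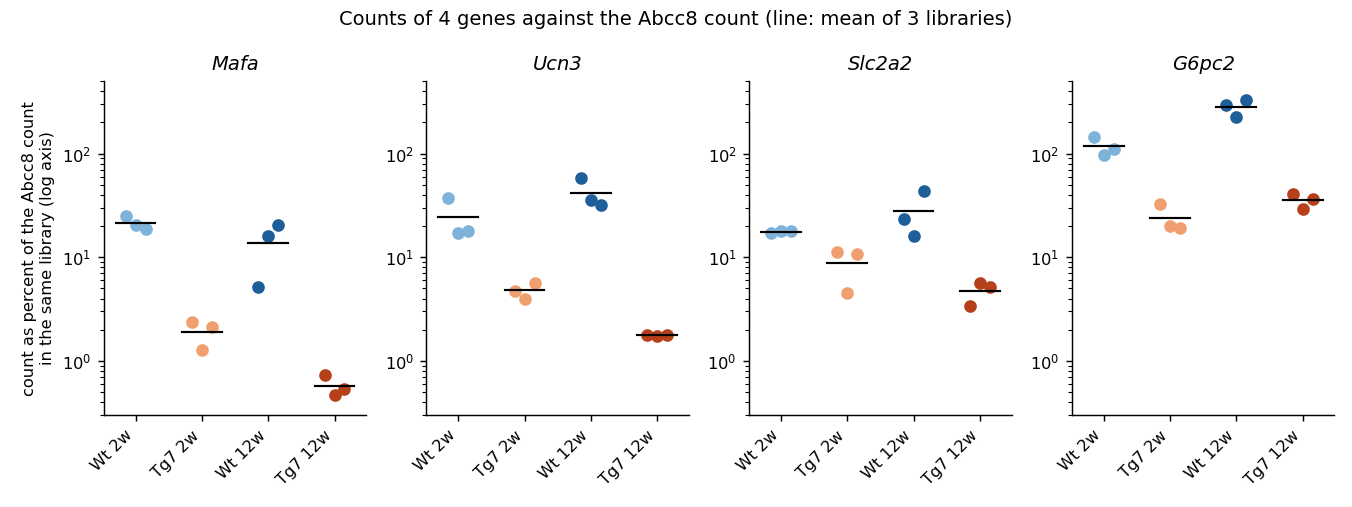
Counts of 4 genes as a percentage of the Abcc8 count in the same library, on a log axis; points are libraries and lines are means of 3. Tg7 libraries lie below Wt libraries of the same age in each panel, and G6pc2 exceeds the Abcc8 count in 5 of 6 Wt libraries but in no Tg7 library.

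The genes were next set beside their partners and paralogues. Maf, another large Maf transcription factor, was called higher at 2w (log2 fold change 1.18, adjusted p = 0.0479, edgeR), where Tg7 replicate 3 stood at 50.3 CPM and the other Tg7 libraries at 20.8 and 22.5 CPM, and was not called at 12w (-0.13). Without that library the value at 2w was 0.64 (adjusted p = 0.259), and the call was also lost without any 1 of the 2w Wt libraries (largest adjusted p = 0.161). In all the 2w call was lost under 7 of 21 alternatives, among them the fit without 12w Tg7 replicate 2 (1.17, adjusted p = 0.0693). Nrl was too low to test.

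Among the receptors of the urocortin and corticotropin-releasing factor family, Crhr1, found on β-cells, was counted at 19, 27 and 46 reads in 12w Wt libraries and at 1, 3 and 2 reads in 12w Tg7 libraries (log2 fold change -4.41, SE 0.87, adjusted p = 0.00250, edgeR). At 2w it was counted at 25, 4 and 12 reads in Wt and 6, 6 and 0 in Tg7 libraries (-1.80, adjusted p = 0.172). These counts are low, and the size of the fold change is uncertain to that degree. Crhr2, the receptor for urocortin 3 on δ-cells, was at 1.73 ± 0.88 CPM in Wt and 1.18 ± 0.383 CPM in Tg7 islets at 12w (-0.54, adjusted p = 0.520) and was not called at 2w (0.10, adjusted p = 0.923). Ucn and Crh had no reads in any library, and Ucn2 and Crhbp were too low to test.

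Of 10 other hexose transporters tested, 1 was called lower and 1 higher at 2w, and 2 lower and 1 higher at 12w. Of all tested genes, 4.55% were called lower and 6.07% higher at 2w, and 11.2% lower and 12.5% higher at 12w. Slc2a1, which encodes the widely expressed transporter GLUT1, fell at 12w (log2 fold change -1.32, SE 0.21, adjusted p = 4.97e-04, edgeR) and was not called at 2w (-0.18). Slc2a5, a fructose transporter, was lower at both ages (-0.38 and -0.56), and Slc2a13, a myo-inositol transporter, was higher at both (0.90 and 1.11). For Slc2a3 the log2 fold change was 0.72 at 12w (adjusted p = 0.0631) and -0.16 at 2w. At 12w Slc2a3 passed with DESeq2 (0.72, adjusted p = 0.0442), with scaling by total counts (1.17, adjusted p = 0.00267) and without Wt replicate 2 (0.99, adjusted p = 0.0217). The Slc2a5 call at 2w was lost under 12 of 21 alternatives, and at 12w with scaling by total counts (-0.10, adjusted p = 0.526). The Slc2a13 call at 2w was lost without 2w Wt replicate 1 (0.82, adjusted p = 0.0703). Slc2a2 thus had the lowest fold change of the transporters tested at each age.

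Glucose phosphorylation is the step that G6pc2 opposes. Of 5 hexokinases and regulators tested, 1 was called lower at 2w, and 1 lower and 2 higher at 12w. The shares of all tested genes were 4.55% lower at 2w, and 11.2% lower and 12.5% higher at 12w. Pfkfb2, an enzyme that makes and breaks down a regulator of glycolysis, was lower at both ages (-0.89 and -0.95). Its 12w call was lost with scaling by total counts (-0.53, adjusted p = 0.0582). Hk1, a hexokinase of high affinity for glucose that mature β-cells keep low, was higher at 12w (0.66, SE 0.15, adjusted p = 0.00525, edgeR) and not called at 2w (0.22). Hk2, another such hexokinase, was higher at 12w (2.91, SE 0.54, adjusted p = 0.00167) at a low level, 0.350 ± 0.235 CPM in Wt and 2.61 ± 0.565 CPM in Tg7 islets. At 2w Hk2 was not called in the reported fit. It was called higher under 5 of 21 alternatives, among them DESeq2 on all libraries (1.26, adjusted p = 0.0382).

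Of the 6 other genes of the glucose-6-phosphatase system that were tested, none was called lower and only Slc37a1, a relative of the glucose-6-phosphate transporter, was called higher (0.69 at 2w and 0.87 at 12w). Over all tested genes, 4.55% were called lower and 6.07% higher at 2w, and 11.2% and 12.5% at 12w. The Slc37a1 call at 2w was lost without 2w Wt replicate 2 (0.65, adjusted p = 0.0586) or replicate 3 (0.69, adjusted p = 0.0615). G6pc3, the broadly expressed catalytic subunit, had log2 fold changes of -0.02 and -0.12, and Slc37a4, the transporter that feeds the enzyme, of 0.12 and -0.01. G6pc, the liver subunit, was at 8.55 ± 2.35 CPM in Wt and at 22.9 ± 16.4 CPM in Tg7 islets at 2w (1.43, adjusted p = 0.0615), and DESeq2 called it (adjusted p = 0.0127), as did the fit without Tg7 replicate 1 at 2w (1.78, adjusted p = 0.0193).

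Kcnj11, which encodes the pore partner of SUR1, was lower at both ages, and the difference from Abcc8 was not tested. Its level at 2w was 146, 154 and 134 CPM in Wt and 72.2, 73.6 and 54.2 CPM in Tg7 islets (log2 fold change -1.12, SE 0.16, adjusted p = 7.40e-04, edgeR). At 12w it was 116, 171 and 172 CPM in Wt and 104, 103 and 94.5 CPM in Tg7 islets (-0.61, SE 0.16, adjusted p = 0.0138). The 12w call was lost without Tg7 replicate 3 (-0.56, adjusted p = 0.0658), with replicate number as a block (-0.42, adjusted p = 0.0501) and with scaling by total counts (-0.19, adjusted p = 0.501). Kcnj8 and Abcc9, the subunits of the KATP channel of vascular smooth muscle and pericytes, were called higher at 12w (1.38 and 0.91) and not at 2w (0.29 and 0.22). The Abcc9 call was lost without Tg7 replicate 3 at 12w (0.83, adjusted p = 0.0506) and with edgeR on the 12w libraries alone (0.88, adjusted p = 0.0518). The summed level of the 6 stellate cell and fibroblast markers was 79.7 to 139 CPM in 12w Wt and 282 to 313 CPM in 12w Tg7 islets, and that of the 5 endothelial markers 299 to 386 and 601 to 659 CPM. The part of these cells in the 2 calls was not tested.

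**Figure D4:**
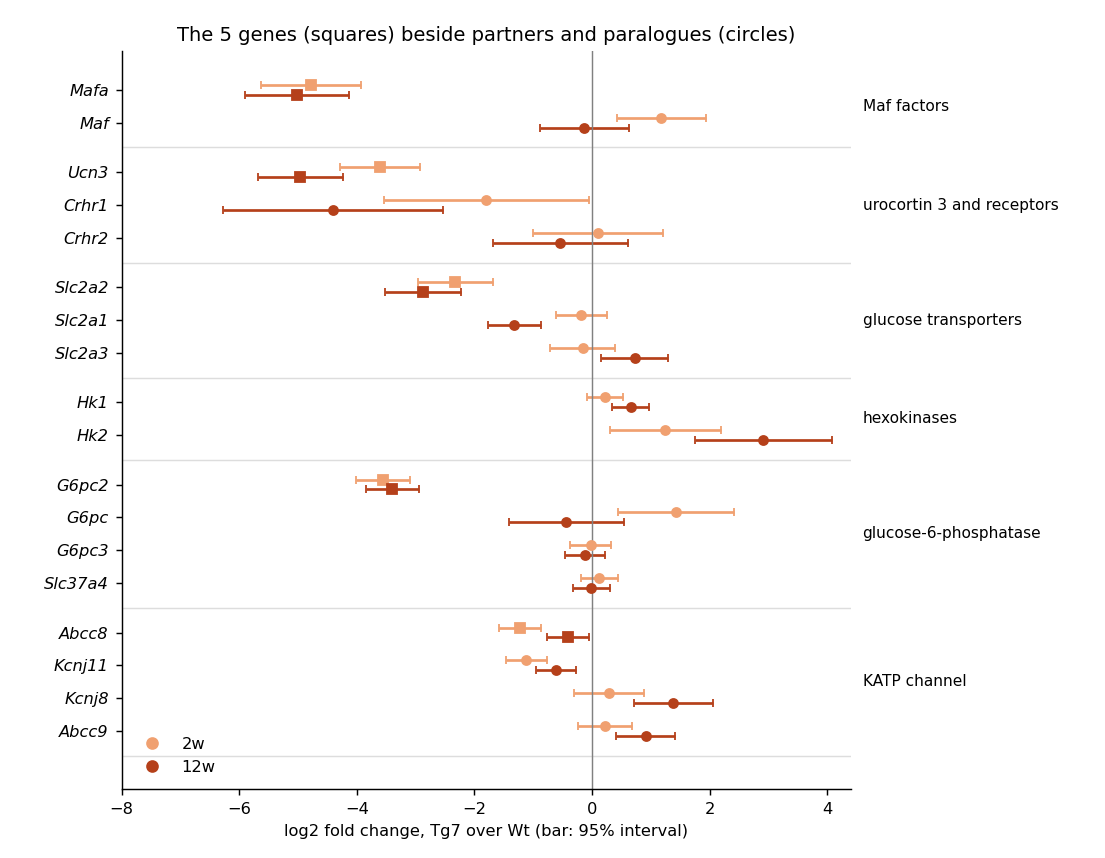
Log2 fold changes of Tg7 over Wt at 2w and 12w with 95% intervals for the 5 genes (squares) and for partners and paralogues (circles), grouped by role. The intervals of Mafa, Slc2a2 and G6pc2 do not reach those of the paralogues shown with them, while those of Abcc8 overlap those of Kcnj11.

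Among 12 other genes of mature β-cells, 8 were called lower and none higher at each age, with a median log2 fold change of -1.33 at 2w and -1.14 at 12w. Of all tested genes, 4.55% were called lower at 2w and 11.2% at 12w. Ins1 changed by -1.79 at 2w and -3.85 at 12w, Ins2 by -2.49 and -1.71, and Ero1lb, an oxidase of insulin folding, by -2.41 and -2.49. Ins1 and Ins2 are close paralogues, so reads could have been split between them. Iapp, the peptide stored with insulin, was not called at either age (-0.21 and -0.20). Nkx6-1, among the 8 called lower at 12w, lost that call under 15 of 21 alternatives. Among 9 genes of immature β-cells, none was called lower, and 3 were called higher at 2w and 5 at 12w, against 6.07% and 12.5% of all tested genes called higher. Gast, the fetal islet hormone gastrin, rose at 12w (3.20, adjusted p = 1.11e-04, edgeR) from 0.458 ± 0.123 to 4.37 ± 0.718 CPM. Pdgfra was called at both ages (2.46 and 2.20) but is also a marker of stellate cells, whose summed level was higher in Tg7 islets at both ages, and at 2w its Tg7 libraries stood at 17.1, 1.62 and 5.56 CPM. Without the first of these the 2w value was 1.31 (adjusted p = 0.124), and the 12w call was lost without any 1 of the 12w libraries (largest adjusted p = 0.0997). Ldha, a lactate dehydrogenase subunit that β-cells keep low, was called higher at 2w (0.98), but not without Tg7 replicate 3 (0.70, adjusted p = 0.158) or without any 1 of the 2w Wt libraries (largest adjusted p = 0.141). Over all lists of partners, with the transcription factors described next, 13 genes were called lower and 12 higher at 12w. With scaling by total counts alone these numbers were 7 and 22. Some genes are on several lists and are counted once, so no share of the list genes is given. In the reported fit, 11.2% of all tested genes were called lower and 12.5% higher at 12w.

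Of 10 transcription factors known to act on these genes, 2 were called lower at 2w and none higher, against 4.55% and 6.07% of all tested genes. These were Pdx1 (-1.30, SE 0.21, adjusted p = 0.00149, edgeR) and Nkx6-1 (-0.91, adjusted p = 5.02e-04). At 12w 2 of the 10 were called lower and 2 higher, against 11.2% and 12.5% of all tested genes. They included Neurod1 (-0.74, adjusted p = 0.00121, and -0.28, adjusted p = 0.117, with scaling by total counts) and Rfx6 (0.72, adjusted p = 0.00728). Nkx6-1 was the other gene called lower at 12w, but that call was lost under 15 of 21 alternatives. Each of these fold changes was smaller than that of Mafa. Neurod1 was not called at 2w in the reported fit, but was called lower under 7 of 21 alternatives. Among these were DESeq2 on all libraries (-0.42, adjusted p = 0.0223) and edgeR on the 2w libraries alone (-0.42, adjusted p = 0.0153). Pdx1 was not called at 12w and was called under 1 of 21 alternatives, without 12w Wt replicate 2 (-0.69, adjusted p = 0.0142).

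For each member, the 3 genes most alike were those with the smallest root mean square difference in log2 CPM over the 12 libraries after each gene was centred on its own mean, among 14370 genes with a mean of at least 1 CPM. This measure is a description, since the libraries share group differences and scaling. Levels were centred but not scaled, so it also grows with the size of a gene's changes. Its values therefore do not rank closeness between members. Abcc8, which differed least, was most like the synaptic vesicle gene Syn2 (0.20), its channel partner Kcnj11 (0.22) and the kinase gene Brsk2 (0.22). Slc2a2 was most like Ero1lb (0.44), the insulin granule gene Sytl4 (0.51) and Fmn1 (0.51), and G6pc2 most like Prss53 (0.49), the GABA-synthesising enzyme gene Gad1 (0.56) and Plk3 (0.60). Ucn3 was most like the cation channel gene Trpm5 (0.65), St8sia5 (0.66) and Mlph (0.69), and Mafa most like the potassium channel gene Kcnj12 (0.57), Gm6999 (0.84) and Bambi-ps1 (0.99), a pseudogene whose reads may be shared with its parent gene.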

How the data were processed

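The authors trimmed paired-end reads with Trimmomatic, aligned them to mm9 with TopHat2 2.0.11 and deposited unnormalised counts per Ensembl gene from featureCounts. The sources used here give neither the strand setting nor the annotation release. Of 37991 gene IDs, 37205 were paired with a symbol through GENCODE vM1 on NCBIM37, which also gave exon lengths. All 12 libraries and every count column were used, and groups came from the sample labels. Low counts were removed with filterByExpr (minimum count 10, minimum total count 15), which does not require that count in every library. The rest were fitted as 4 group means with edgeR 4.0.16 (glmQLFit, glmQLFTest) in R 4.3.3, with TMM factors and Benjamini-Hochberg adjustment over 15961 genes. DESeq2 1.42.0, the tool of the study, was an alternative. The SE was derived from the fold change and its F statistic. Intervals are 95%. Scripts were tested on simulated data. Replicates were compared pairwise and none was a duplicate. Figures used Python 3.11.15 and matplotlib 3.10.9. The 5 members, the lists of partners and the tests were chosen with earlier results of these data known. Genes named were the members, fixed partners, the 2 called genes of largest change per list and age, and the 3 most alike genes; some of the partners are not reported here. Same-numbered libraries did not deviate together, with correlations of -0.167 to -0.0112.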

Additional observations from a re-analysis of the deposited data

How the results depend on the processing

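Alternatives were DESeq2 on all libraries, scaling by total counts alone, upper-quartile factors, leaving out the 20 most abundant genes, no filter, a filter of 50 counts in 3 libraries, fits of each age alone with edgeR or DESeq2, replicate number as a block, and each library left out in turn. Mafa, Ucn3, Slc2a2 and G6pc2 stayed lower and called in Tg7 islets at both ages under all 21 alternatives, as did Abcc8 at 2w, and G6pc2 stayed called higher at 12w in both genotypes under all 19. Where a value moved, the cause was not tested. The numbers of genes called below are over all tested genes, and those of the partner lists count each gene once. Each group had 3 pools, and the interval of Abcc8 at 12w ran from -0.77 to -0.06.

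With scaling by total counts alone, Abcc8 at 12w was 0.037, its difference between ages 1.11 (adjusted p = 0.0319), its change with age in Wt islets -0.51 (adjusted p = 0.0446) and its value in 12w Tg7 against 2w Wt islets -0.47 (adjusted p = 0.0722), and Mafa changed with age in Wt islets by -1.06 (adjusted p = 0.0490). Partners not called in the reported fit changed sign there: Slc2a3 (0.0081) and G6pc3 (0.14) at 2w, and G6pc (0.051), G6pc3 (0.35), Slc37a4 (0.43), Maf (0.35) and Iapp (0.28) at 12w. Nkx6-1, called lower at 12w in the reported fit (-0.37, adjusted p = 0.0448), was 0.085 there, and its call was lost under 15 of 21 alternatives. The lists then held 12 genes called higher at 2w instead of 6, and at 12w 7 lower and 22 higher instead of 13 and 12. The difference between ages was called for 347 genes instead of 188 and the change with age in Wt islets for 4117 instead of 2524. For age in Wt islets, that scaling moved the median of all tested genes from 0.04 to -0.35. Relative to the median under it, Abcc8 stood at -0.16. Of the genes called there, 92.1% were lower, against 50% in the reported fit. With upper-quartile factors, G6pc3 at 2w was 0.033, and at 12w Slc37a4 was 0.083; Abcc8 in 12w Tg7 against 2w Wt islets was -0.47 (adjusted p = 0.0613).

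With DESeq2 on all libraries, Abcc8 at 12w was -0.42 (adjusted p = 0.0477), the differences between ages were -1.38 for Ucn3 (adjusted p = 0.0261) and 0.80 for Abcc8 (adjusted p = 0.0253), 566 genes passed that test, and 12 list genes were called higher at 2w. DESeq2 on each age alone called 2985 genes at 2w instead of 1695, and 11 list genes higher. Without a filter, the difference between ages was -1.34 for Ucn3 (adjusted p = 0.0264) with 420 genes called, and Mafa changed with age in Tg7 islets by -0.97 (adjusted p = 0.0419). With the filter of 50 counts, Slc37a4 at 12w was 0.0135.

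With replicate number as a block, Abcc8 at 12w was -0.46 (adjusted p = 0.0455), the difference between ages was -1.56 for Ucn3 (adjusted p = 0.0494) and 0.13 for Mafa, Ucn3 changed with age in Wt islets by 0.86 (adjusted p = 0.0392), and at 12w Slc37a4 was 0.045 and Ldha -0.13. The block called 2630 genes at 2w, 502 for the difference between ages and 3817 for age in Wt islets. The labels give replicate numbers without saying whether same-numbered libraries belong together. Only the 12w Wt group has a replicate 4, so the block fit takes nothing from that library. It is therefore not independent of the fit without that library.

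With single libraries left out, Abcc8 ranged from -0.48 to -0.30 at 12w, from 0.72 to 1.04 for the difference between ages, from 0.59 to 0.93 with age in Tg7 islets and from -0.59 to -0.45 in 12w Tg7 against 2w Wt islets. The difference between ages ranged from -1.84 to -1.12 for Ucn3, from -0.66 to 0.012 for Mafa and from -0.025 to 0.32 for G6pc2. The change with age ranged from 0.42 to 1.14 for Ucn3 in Wt islets, and in Tg7 islets from -1.08 to -0.89 for Mafa and from -0.29 to 0.18 for Slc2a2. Among partners, the range was -0.19 to 0.71 for Crhr2, -0.084 to 0.0070 for G6pc3 and -0.016 to 0.23 for Slc37a4 and -0.14 to 0.30 for Gast at 2w, and -0.30 to 0.049 for G6pc3 and -0.13 to 0.088 for Slc37a4, -0.47 to 0.17 for Maf, -0.33 to 0.031 for Iapp and -0.12 to 0.48 for Ldha at 12w. The number of genes called ranged from 754 (without Wt replicate 3) to 3071 (without Wt replicate 4 of 12w) at 2w, from 2417 to 4036 at 12w, from 82 to 579 for the difference between ages, from 1336 to 4020 with age in Wt, from 1115 to 3329 with age in Tg7 islets and from 2477 to 5452 in 12w Tg7 against 2w Wt islets. The number of list genes called higher at 2w ranged from 1 to 11.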
